A study of Mus musculus with 6 samples.

Results

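The genes described here are the secreted signals of the immune system: interleukins, colony-stimulating factors, interferons, chemokines and ligands of the tumour necrosis factor (TNF) superfamily. They were taken by a rule on gene symbols that uses no measured value. The rule was set with earlier results of these data known, and 105 of the 18312 genes in the table matched. Because the symbol pattern for interferons also takes the start of their receptor names, 4 of the 105 are interferon receptors (Ifnar1, Ifnar2, Ifngr1 and Ifngr2), and the other 101 are ligands or ligand subunits. The study addressed the mRNA targets of Brf1 (gene Zfp36l1) and Brf2 (gene Zfp36l2), RNA-binding proteins of the ZFP36 family, in E14 mouse embryonic stem cells, a wild-type line of 129/Ola background grown in 15% FBS with 1000 U/ml LIF. The labels describe 6 libraries: 2 of RNA precipitated from cytoplasmic extract with an anti-Brf1/2 antibody, 2 of RNA precipitated with rabbit IgG as the control, and 2 of total RNA taken before precipitation. All groups share the cell line, genotype and culture, and the labels do not say whether the replicates came from separate cultures. The table holds a single profile of 22625281 counts, and nothing in it names a library or a group. No comparison between antibody, IgG and total RNA was therefore made. A level below is the abundance of a transcript in that profile, which may be precipitated RNA, and it is neither enrichment nor binding. There are no replicates, and intervals and limits cover counting error only.

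Cytokines are small secreted or membrane-bound proteins through which cells signal to each other. Chemokines guide migrating cells through receptors coupled to G proteins, and TNF superfamily ligands act as trimers on receptors that signal survival, inflammation or death. Many cytokine mRNAs are short-lived in immune cells, because AU-rich elements in their 3′ untranslated regions are bound by proteins of the ZFP36 family, which recruit deadenylation and decay enzymes. In mouse embryonic stem cells the best known cytokine of the group is LIF, which maintains self-renewal through the receptor chains Lifr and Il6st and the transcription factor Stat3.

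The elements in question are clusters of the pentamer ATTTA, often overlapping as the heptamer TATTTAT, on the sense strand of the 3′ untranslated region. For the members on which the results turn, the stretch of 30 bases with the most pentamers is shown, from GENCODE M21 transcripts (build GRCm38, which is not the mm9 build of the table). Letters read 5′ to 3′ along the mRNA in DNA code, and capitals mark ATTTA. The first set holds inflammatory cytokines known as targets of the ZFP36 family in immune cells, all of which were under 1 FPKM here.
Tnf (chr17:35199678-35199707, minus strand): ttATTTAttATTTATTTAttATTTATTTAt
Csf2 (chr11:54247325-54247354, minus strand): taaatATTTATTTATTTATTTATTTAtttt
Cxcl2 (chr5:90905327-90905356, plus strand): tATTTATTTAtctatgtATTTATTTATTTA
Cxcl1 (chr5:90892606-90892635, plus strand): gtcctATTTATTTAtgtATTTATTTAttcc
Ifng (chr10:118445332-118445361, plus strand): cctATTTAttaatATTTAaaactATTTAta
The second set holds members at 1 FPKM or more whose regions also carry the heptamer. Of these, Lif and Il23a are likewise known targets of the ZFP36 family, so the sets differ by level and not by target status.
Il11 (chr7:4773498-4773527, minus strand): ccagatcttATTTATTTATTTAttttggta
Lif (chr11:4272414-4272443, plus strand): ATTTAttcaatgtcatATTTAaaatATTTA
Il23a (chr10:128296179-128296208, minus strand): tgatggttATTTAttctATTTAtaaggaat
Tnfsf10 (chr3:27339347-27339376, plus strand): ttttacctATTTAtcatATTTAtcactttc
The third set holds members at 1 FPKM or more that lack the heptamer.
Cxcl16 (chr11:70455103-70455132, minus strand): tagctaagatgttATTTAgtccaagccagc
Il17d (chr14:57542828-57542857, plus strand): tttcatattagtaATTTAgagcaagcatgt
The stretch of Tnf covers bases 438 to 467 of its region of 764 nt, and that of Csf2 covers bases 234 to 263 of 317 nt. In Csf2, 5 pentamers overlapped in a single unbroken run, and Tnf and Cxcl2 each had 5 within 30 bases. Il11 had a run of 3, whereas the windows of Cxcl16 and Il17d held 1 isolated pentamer. The window of Lif held 3 separate pentamers and no complete heptamer, and its whole region of 3180 nt held 5 heptamers. Ltb, the most abundant of the 101 ligands, had no pentamer in its region of 174 nt, so no stretch of it is shown.

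Cytokine transcripts were scarce in the profile. Of the 105 members, 23 (21.9%) had at least 1 FPKM (fragments per kilobase of effective length, scaled to the total count), where 56.0% of all genes did. No count at all was recorded for 50 members (47.6%), where 21.0% of all genes had none. The profile comes from bulk cells and may be precipitated RNA. Fewer cells with a transcript, less of it per cell and less of it recovered therefore cannot be told apart. The other 32 members were counted but stayed under 1 FPKM, 7 of them with 1 or 2 counts. The median member had 0.0362 FPKM, and the median over all genes was 1.94 FPKM. Together the 105 members held 5988 counts, 0.0265% of the total, and the 4 receptors alone gave 2964 of these. Among the 101 ligands, 19 had at least 1 FPKM and 2 had at least 5 FPKM.

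**Figure D1:**
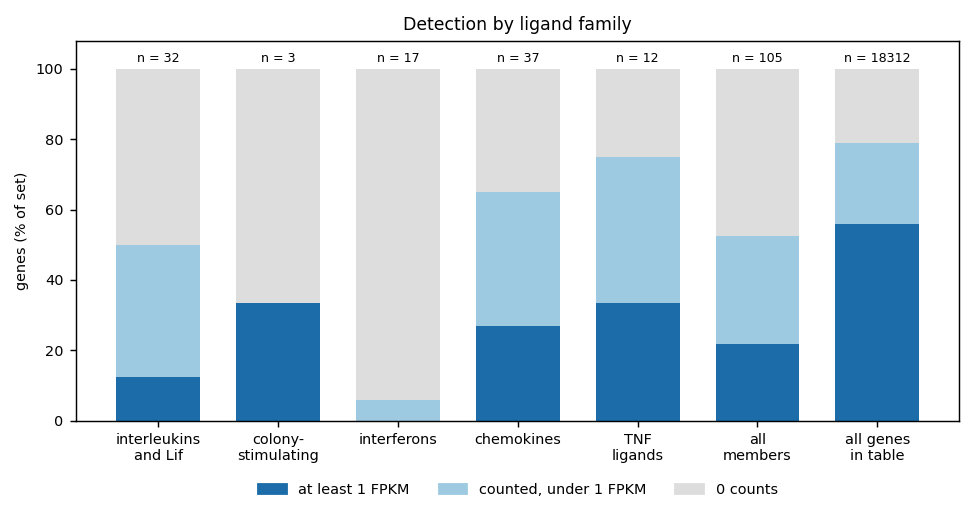
Share of genes in each class of level (y axis, % of the set) for the 5 ligand families, for all 105 members including the 4 interferon receptors, and for all 18312 genes, with the number of genes above each bar. Dark blue is at least 1 FPKM, light blue is counted but under 1 FPKM, and grey is 0 counts. Interferons are nearly all grey, and the grey share of all members, 47.6%, lies above the 21.0% of all genes.

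A count of 0 does not mean that a transcript was absent. The limit set by 3 counts, computed on each gene's own effective length, ran from 0.0553 FPKM for Tnfsf8 to 1.37 FPKM for Ccl26, with a median of 0.176 FPKM over the 50 members without counts. Ccl26, an eotaxin, is the single one of the 50 whose limit lies above 1 FPKM. Its model has 282 nt and the effective length is 97.1, and on the model length the limit is 0.470 FPKM. Members without counts had short models, with a median of 802.5 nt, and those at 1 FPKM or more had a median of 2070 nt.

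Interleukins and Lif were a family with a single member above 5 FPKM. Of 32 genes, 4 had at least 1 FPKM, 12 were counted below that and 16 had no count. Il17d, a member of the interleukin 17 family, had 164 counts and 5.08 FPKM (exact 95% Poisson interval 4.33 to 5.91). Il11, a cytokine that signals through Il6st as LIF does, had 109 counts and 1.82 FPKM (1.498 to 2.20). Lif itself had 149 counts and 1.35 FPKM (1.14 to 1.59). The cells received LIF protein from the medium, and the profile, which may be precipitated RNA, may not give the transcript level in the cells. Il23a, the p19 subunit of interleukin 23, had 41 counts and 1.27 FPKM (0.914 to 1.73), an interval that includes values under 1. Its partner Il12b, the p40 subunit shared with interleukin 12, had 4 counts and 0.0649 FPKM (0.0177 to 0.166). The interval of Il12b lies wholly below that of Il23a.

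The next interleukins were Il24 at 0.508 FPKM (12 counts), Il34 at 0.432 (20 counts) and Il7 at 0.338 (14 counts). Il34 is a second ligand of the macrophage growth factor receptor, and Il7 supports lymphocyte development. The remaining counted interleukins had between 1 and 8 counts. Il1a and Il1b, the proinflammatory interleukin 1 cytokines, had 6 counts and 1 count, at 0.111 and 0.0256 FPKM. Il2, the T cell growth factor, had 1 count. Il21, another T cell cytokine, had 8 counts and 0.116 FPKM. Among further T cell and inflammatory cytokines, Il4, Il5, Il13, Il17a, Il17f, Il22, Il10 and Il6 were without counts. Their limits ran from 0.0940 FPKM for Il5 to 0.186 FPKM for Il6.

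Of the colony-stimulating factors, which drive the growth of myeloid cells, Csf1 was the single one detected. It had 212 counts and 1.63 FPKM (1.41 to 1.86). Csf2 and Csf3, the granulocyte-macrophage and granulocyte factors, had no count, which allows up to 0.142 and 0.0866 FPKM. Both limits lie below the lower end of the Csf1 interval.

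Interferons were nearly absent from the counts, while their receptors were all above 1 FPKM. Of 17 interferon genes, 16 had no count. These were Ifnb1, Ifng, Ifnk, the lambda genes Il28a and Il28b, and 11 of the 12 interferon alpha genes. The exception was Ifna4, with 4 counts and 0.339 FPKM (0.0924 to 0.868). Limits for the 16 ran from 0.119 FPKM for Ifng to 0.249 for Ifna7. Interferon alpha genes are near-identical copies, and the unique counts of the table nowhere differ from the total, so reads shared between copies cannot be traced.

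The receptors of these ligands were present. Ifnar1, a chain of the type I receptor, was the most abundant of the 105 members, with 2353 counts and 14.4 FPKM (13.8 to 15.0). Its partner Ifnar2 had 241 counts and 2.18 FPKM (1.92 to 2.48). The chains of the interferon gamma receptor had 2.54 FPKM for Ifngr1 (2.14 to 3.003) and 4.34 FPKM for Ifngr2 (3.80 to 4.93). On the model length the gap between the type I chains was smaller, with 14.8 FPKM for Ifnar1 and 3.50 for Ifnar2.

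Chemokines were the family with the most detected members, though none passed 5 FPKM. Of 37, 10 had at least 1 FPKM, 14 were counted below that and 13 had no count. The CXC subfamily had 5 of 13 members at 1 FPKM or more and 2 without counts. The CC subfamily had 4 of 23 and 11 without counts. Cxcl16, a membrane-anchored chemokine that also acts as a scavenger receptor, had 339 counts and 4.47 FPKM (4.01 to 4.97). Cxcl12, which guides haematopoietic and germ cells, had 278 counts and 3.51 FPKM (3.11 to 3.94). These intervals do not overlap.

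The interferon-inducible chemokines Cxcl11 and Cxcl10 had 67 and 40 counts, at 2.51 FPKM (1.95 to 3.19) and 1.58 FPKM (1.13 to 2.15). Cxcl9, which belongs to the same group, had 6 counts and 0.0919 FPKM (0.0337 to 0.200), below both. Cxcl14 had 1.35 FPKM and Cx3cl1, the membrane-bound fractalkine, had 1.21. Among CC chemokines, Ccl25, which directs thymocytes and gut lymphocytes, had 1.72 FPKM (1.30 to 2.23). The skin chemokine Ccl27a had 1.71 (1.13 to 2.49), its copy Ccl27b 1.06 (0.646 to 1.63) and Ccl9 1.22 (0.939 to 1.55). Ccl27a and Ccl27b are near-identical, so their split is uncertain, and the same holds for Ccl21a, Ccl21b and Ccl21c with 6, 2 and 1 counts.

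The neutrophil chemokines Cxcl1, Cxcl2 and Cxcl5 had 13, 5 and 7 counts, at 0.381, 0.235 and 0.264 FPKM. The inflammatory monocyte chemokines had fewer counts, though not all had lower levels. Ccl3 had 4 counts and 0.329 FPKM (0.0895 to 0.841), and Ccl5 had 2 counts and 0.248 FPKM (0.0301 to 0.898). Both intervals overlap those of Cxcl1, Cxcl2 and Cxcl5. Ccl2, Ccl4, Ccl7 and Ccl8 had no count. The limit for Ccl2 is 0.230 FPKM and that for Ccl4 is 0.276 FPKM.

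Ligands of the TNF superfamily held the most abundant of the 101 ligands. Of 12 genes, 4 had at least 1 FPKM, 5 were counted below that and 3 had no count. Ltb, the lymphotoxin beta chain that anchors lymphotoxin at the cell surface, had 543 counts and 13.4 FPKM (12.3 to 14.5). Lta, the chain with which it forms its trimer, had 5 counts and 0.144 FPKM (0.0469 to 0.337). Tnf had 15 counts and 0.398 FPKM (0.223 to 0.657). Tnf and Lta overlap in their intervals, and both lie far below Ltb, whose level in FPKM exceeds that of any other ligand here without overlap.

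Tnfsf11 (RANKL), the osteoclast differentiation factor, had 183 counts and 3.52 FPKM (3.03 to 4.07). Tnfsf10 (TRAIL), which triggers death receptors, had 252 counts and 2.51 FPKM (2.21 to 2.84). Tnfsf13 (APRIL) had 1.03 FPKM (0.732 to 1.42), just at the threshold, and its neighbour Tnfsf12 (TWEAK) had 0.502 (0.325 to 0.742). Annotated exons of a read-through gene, Tnfsfm13, cover 60.05% of the exon bases of Tnfsf13 and 48.3% of those of Tnfsf12, so the source of their counts is uncertain. Tnfsf13b (BAFF) had 0.298 FPKM and Tnfsf15 had 0.212. The T cell costimulators Tnfsf4, Tnfsf8 and Tnfsf18 had no count, with limits between 0.0553 and 0.0807 FPKM.

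**Figure D2:**
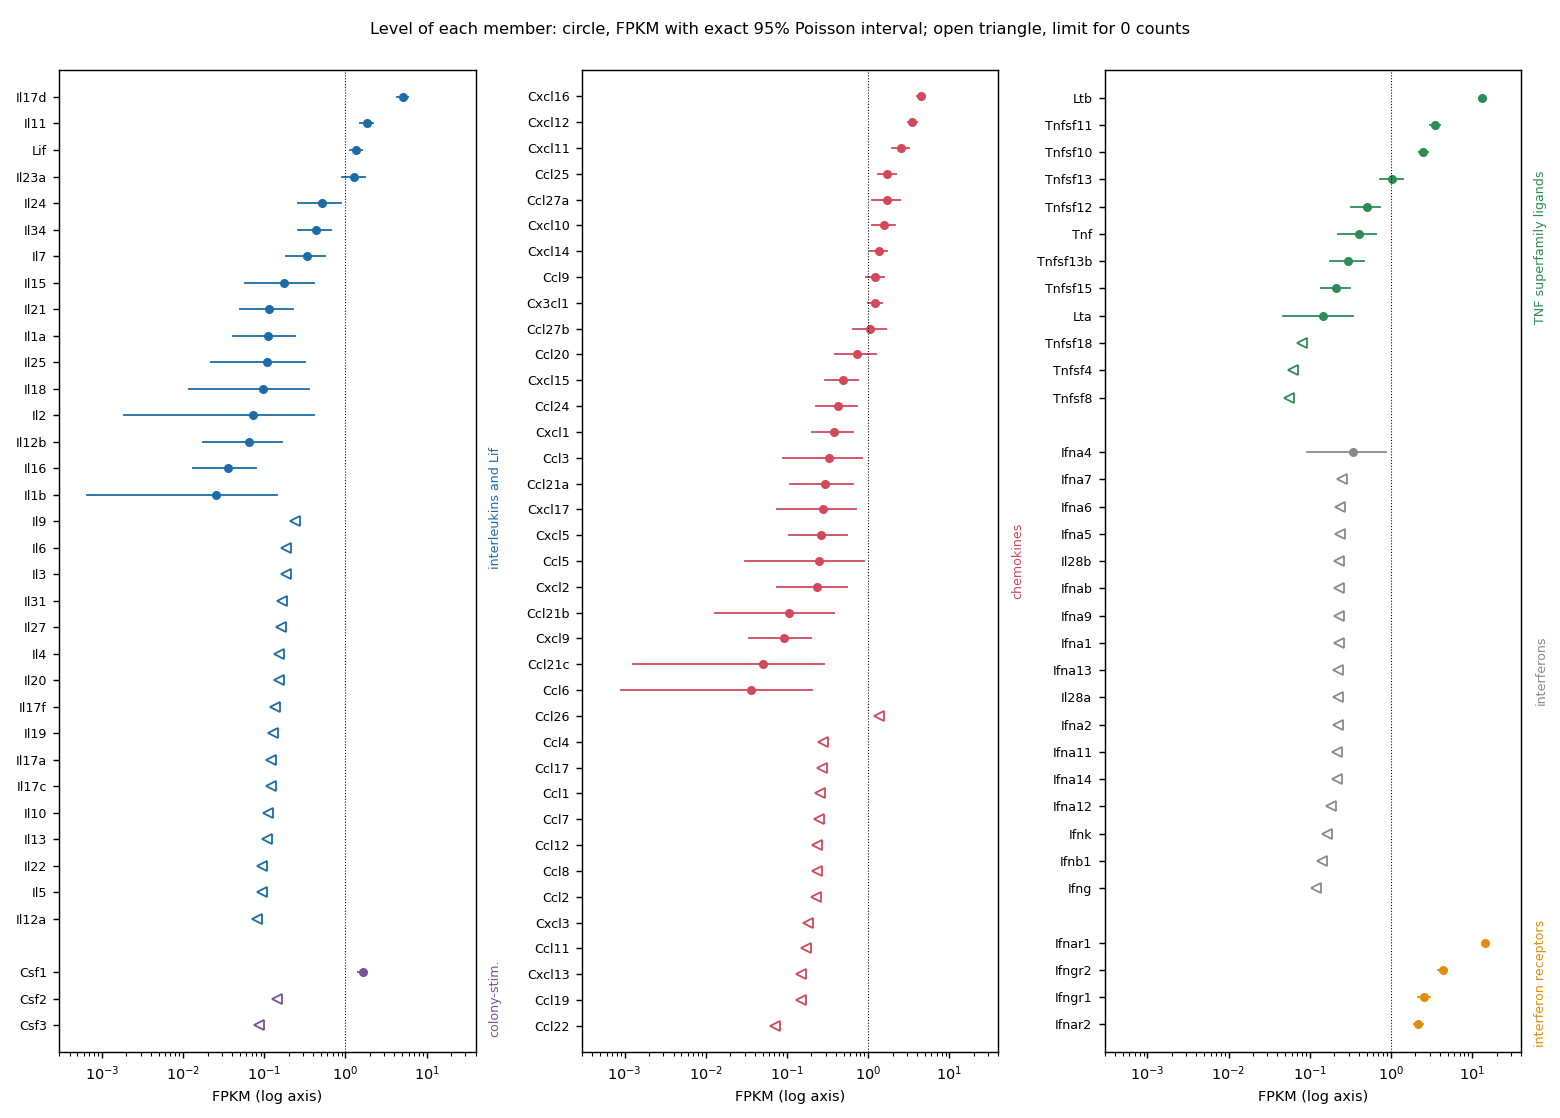
Level of each of the 105 members in FPKM (x axis, log scale), by family. Filled circles are members with counts and bars are exact 95% Poisson intervals; open triangles are members with 0 counts, drawn at the limit of 3 counts. The dotted line marks 1 FPKM, and most triangles lie between 0.0553 and 0.276 FPKM, with Ccl26 alone at 1.37.

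Across families, the order of the 23 members at 1 FPKM or more began with Ifnar1 and Ltb, whose intervals overlap. A gap followed before Il17d, Cxcl16, Ifngr2, Tnfsf11 and Cxcl12, neighbours whose intervals overlap in turn, and then another before Ifngr1. From Ifngr1 at 2.54 down to Tnfsf13 at 1.03, each of the 16 intervals overlaps the next, so neighbours in that range cannot be told apart. Of the 23, 18 had an interval lying wholly above 1 FPKM. The 5 others were Il23a, Ccl9, Cx3cl1, Ccl27b and Tnfsf13. Ccl20, the member nearest below the threshold, had 0.732 FPKM (0.390 to 1.25). The highest members were not abundant genes, since Ifnar1 ranked 3958 and Ltb 4152 among all genes by FPKM.

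Receptors for these ligands, from lists of known receptors, were examined for the other side of each pathway. Of 96 measured receptor genes, the 4 members among them, 29 (30.2%) reached 1 FPKM, where 56.0% of all genes did. Of the 96, 19 (19.8%) were without counts, near the 21.0% of all genes. A few genes stand in more than 1 list. Csf1r, Csf2ra, Cx3cr1, Fas and Tnfrsf21 were listed but not measured, so their levels are unknown. All 6 interferon receptor genes passed, as did 3 of 6 receptors of the Il6st (gp130) family, 11 of 25 TNF receptors, 8 of 37 interleukin receptors, 1 of 3 colony-stimulating factor receptors and 2 of 22 chemokine receptors. Tnfrsf12a, the TWEAK receptor, had 23.7 FPKM (21.5 to 26.0), and the TRAIL receptor Tnfrsf10b had 22.8 (21.7 to 23.9), with overlapping intervals. The ectodysplasin A2 receptor Eda2r had 20.0 FPKM (19.1 to 21.0). Il17rd, an inhibitor of Fgf signalling that belongs to the interleukin 17 receptor family, had 18.5 FPKM. The order of these receptors depends on the length used, since on the model length Tnfrsf10b had 23.4 FPKM, Il17rd 22.2, Tnfrsf12a 21.9, Il6st 21.4 and Eda2r 16.3. Csf3r, the receptor of the granulocyte factor, had 1.51 FPKM. Of 35 measured downstream genes of the NF-kB, Jak-Stat and interferon pathways, 30 (85.7%) had at least 1 FPKM, where 56.0% of all genes did. Socs3, a feedback inhibitor of Jak signalling, was highest at 24.9.

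Of 51 listed textbook ligand and receptor pairs, chosen after the levels had been seen, 47 had both genes measured. Among the 47, ligand and receptor were both at 1 FPKM or more in 4. These were Lif with Lifr, Lif with Il6st, Ltb with Ltbr and Tnfsf10 with Tnfrsf10b. A pair is a single ligand gene with a single receptor chain, not a complete ligand and receptor system. Lif thus appears with both of its chains, and Lta, with which Ltb forms its trimer, had 0.144 FPKM. Lif had 1.35 FPKM, against 5.05 FPKM for Lifr (4.61 to 5.52) and 16.0 FPKM for Il6st (15.4 to 16.6), so both receptor chains exceeded the ligand transcript without overlap. The lymphotoxin pair ran the other way, with Ltb at 13.4 FPKM and the receptor Ltbr at 2.59 (2.19 to 3.03). For Tnfsf10 the ligand had 2.51 FPKM and the receptor 22.8.

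Among the pairs, 15 had the ligand alone at 1 FPKM or more. Cxcl12 had 3.51 FPKM, against 0.735 (0.493 to 1.06) for its receptor Cxcr4 and 0.988 (0.774 to 1.24) for the atypical receptor Cxcr7. Il11 had 1.82 FPKM, against 0.811 (0.613 to 1.05) for Il11ra1. Cxcl16 had 4.47 FPKM while its receptor Cxcr6 had no count, which allows 0.0726 FPKM. The receptor Cxcr3 of Cxcl10 and Cxcl11 had no count either, which allows 0.0903 FPKM. Tnfsf11 had 3.52 FPKM, against 0.565 (0.435 to 0.721) for its receptor Tnfrsf11a, and the decoy receptor Tnfrsf11b had no count.

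On the model length Cxcr7 had 1.25 FPKM and Il11ra1 had 1.34, so both pairs then had both partners above the threshold. The number of pairs with both became 6 in place of 4, and that with the ligand alone 12 in place of 15, since Ccl9 also dropped out.

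In 15 further pairs the receptor alone reached 1 FPKM. Il10, without counts, was paired with Il10rb at 1.83 FPKM, while Il10ra had 1 count. Tnf had 0.398 FPKM, against 2.03 (1.67 to 2.44) for Tnfrsf1a and 2.61 (2.34 to 2.91) for Tnfrsf1b. Tnfsf12 had 0.502 FPKM, against 23.7 for Tnfrsf12a. Cxcl1 had 0.381 FPKM, against 11.9 (11.2 to 12.7) for Cxcr2, a receptor otherwise known from neutrophils. Interferon alpha, beta and gamma genes without counts faced receptor chains of 2.18 FPKM or more. In the last 13 pairs neither partner reached 1 FPKM. Xcr1, the other chemokine receptor above the threshold, had 1.05 FPKM (0.852 to 1.29).

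**Figure D3:**
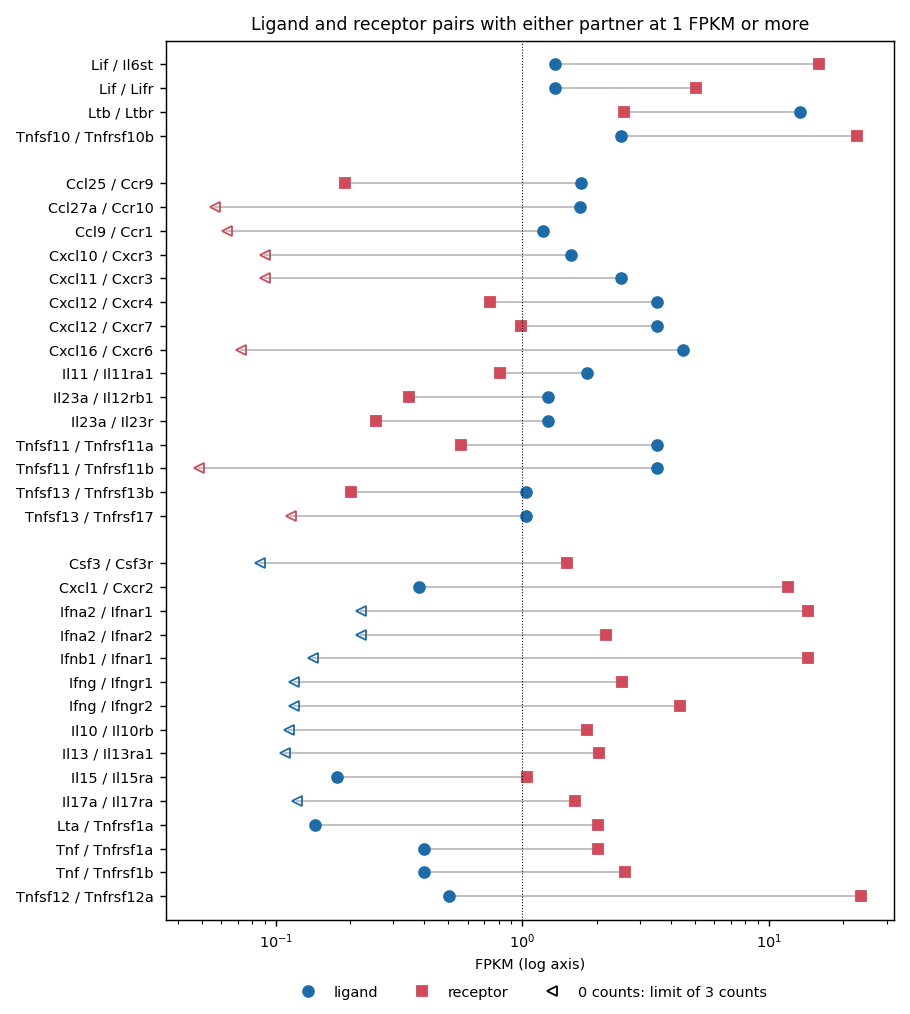
FPKM (x axis, log scale) of ligand (blue circle) and receptor (red square) for the 34 textbook pairs in which either partner has at least 1 FPKM; open triangles are genes with 0 counts at the limit of 3 counts. The top 4 rows have both partners above the dotted line at 1 FPKM, the next 15 have the ligand alone above it, and the last 15 the receptor alone.

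Many cytokine genes lie side by side in the genome, and the runs differed in level. Of the 104 members placed on GRCm38.p6 by RefSeq, 72 fell into 23 runs with at most 3 other protein-coding genes between neighbours. The run of Ltb, Tnf and Lta on chromosome 17 held Ltb at 13.4 FPKM beside a pair under 0.5 FPKM. On chromosome 11, the run of Ccl2, Ccl7, Ccl11, Ccl12, Ccl8 and Ccl1 was without counts in all 6 genes, while the run of Ccl5, Ccl9, Ccl6, Ccl3 and Ccl4 held 72 counts, 65 of them from Ccl9. The run of Il4, Il13 and Il5 and the run of Csf2 and Il3, both on chromosome 11, had no counts. The 13 interferon genes of the chromosome 4 runs had 4 counts in all, those of Ifna4. In contrast, the run of Ifnar2, Ifnar1 and Ifngr2 on chromosome 16 held 2825 counts.

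AU-rich heptamers were common in the group, as is known of cytokine mRNAs. An annotated 3′ untranslated region of at least 50 nt was found for 92 members, and 50 of these (54.3%) held TATTTAT, where 29.2% of 17542 genes did. At least 2 copies were found in 32 members (34.8%), where 11.0% of all genes had as many. Ccl21b and Ccl21c were matched to the same annotated gene, so the same region is counted for both. No region was matched for 13 members, among them Ccl27a and Ccl27b, both at 1 FPKM or more. The regions of the members were shorter, with a median of 613 nt against 1050 nt over all genes. When all genes were divided by the length of the region into 3 equal classes, the short class ended at 592 nt, and in it 46.7% of 45 members held the heptamer and 7.96% of all genes did. In the long class, over 1706 nt, the shares were 66.7% of 15 members and 53.4% of all genes. The density was 1.57 heptamers per kilobase over the members and 0.310 over all genes.

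Families differed in this feature. The heptamer was present in 23 of 32 interleukins (Lif included), 3 of 3 colony-stimulating factors, 5 of 7 interferons with an annotated region, 7 of 12 TNF ligands and 11 of 34 chemokines, and in 1 of 4 interferon receptors, Ifngr2. Csf2 had most, with 9 heptamers in 317 nt, followed by Tnf with 8 and Cxcl2 with 7. Of 23 known targets of the ZFP36 family among the members, 20 held the heptamer. At least 1 FPKM was reached by 4 of the 23 (17.4%: Csf1, Cxcl10, Lif and Il23a), while 10 (43.5%) had no count. These level shares are near the 21.9% and 47.6% of all 105 members, where all genes had 56.0% and 21.0%. Ccl2, Cxcl10 and Il3 were the 3 targets without the heptamer in the annotated region. For Il3 that region has 101 nt in a transcript of 629 nt, and the model in the table has 849 nt, so these differ in extent.

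Of the 50 members with the heptamer, 9 (18%) reached 1 FPKM, and 27 were without counts. Of the 42 members without it, 12 (28.6%) reached 1 FPKM, and 13 were without counts. With a single heptamer, 5 of 18 members (27.8%) reached 1 FPKM, a share near that of members without it. With 2 or more, 4 of 32 (12.5%) did, where 57.2% of all genes with as many did. The highest members, Ifnar1, Ltb, Il17d and Cxcl16, had no heptamer, while those next in order, Ifngr2, Tnfsf11 and Cxcl12, held it. For Ifnar1 the annotated transcript has 3909 nt and its model in the table has 7013 nt, so its end was searched in part. Ligands with 2 or more heptamers and at least 1 FPKM numbered 4: Il11 with 6 heptamers, Lif with 5, Il23a with 5 and Tnfsf10 with 3. Tnfsf11, Cxcl12, Csf1, Cx3cl1 and Ifngr2 had a single heptamer each. With the shortest annotated region in place of the longest, 5 of these 9 kept a heptamer, and Tnfsf10, Csf1, Cxcl12 and Cx3cl1 had none. The longest annotated region exceeds the whole model in the table for 9 members, among them Cxcl12 (5188 nt against a model of 3173 nt), Ifngr2 (2618 nt against 2070 nt) and Cxcl2 (1494 nt against 1083 nt). Over all genes the shares ran the other way, with at least 1 FPKM in 60.8% of those with the heptamer and in 56.0% of those without. No count was recorded for 929 of 5116 genes with the heptamer and for 2488 of 12426 genes without it. Over all genes the regions with the heptamer had a median of 2126.5 nt and those without 735 nt. Among members these medians were 651 and 515.5 nt. The members' shares include the 4 interferon receptors, all at 1 FPKM or more, of which Ifngr2 alone held the heptamer. These shares are a description of a single profile and say nothing about binding.

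**Figure D4:**
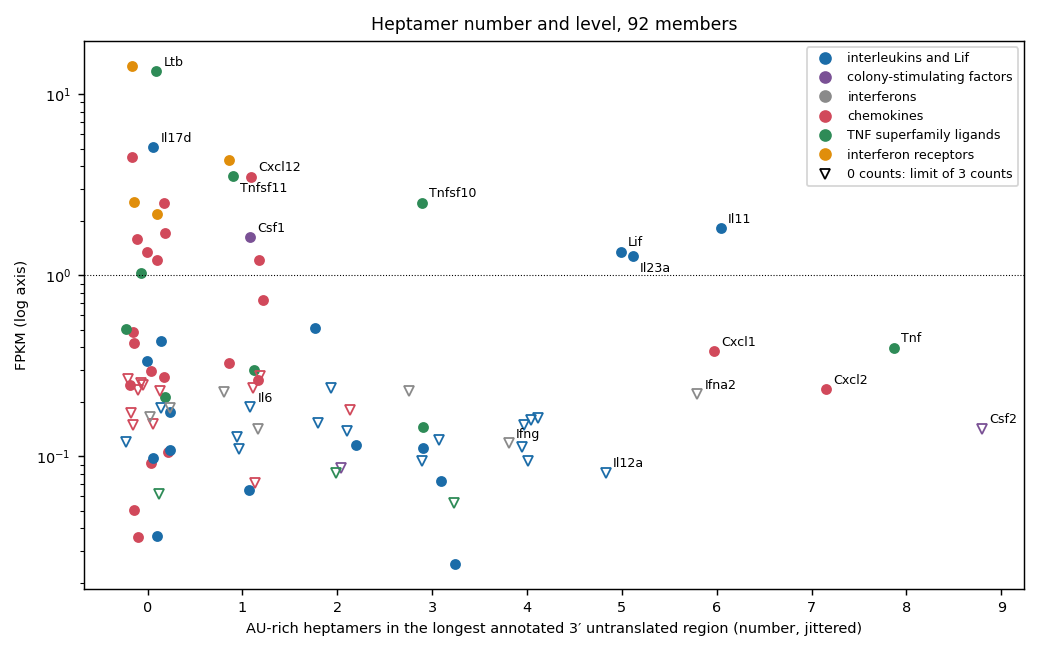
Number of AU-rich heptamers in the longest annotated 3′ untranslated region (x axis, spread sideways for legibility) and FPKM (y axis, log scale) of the 92 members with such a region, coloured by family; open triangles are members with 0 counts at the limit of 3 counts. Above 3 heptamers, Lif, Il23a and Il11 are the 3 members over the dotted line at 1 FPKM, while Csf2, with 9, has no count.

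Marker levels give the setting of these values. All 8 listed embryonic stem cell markers reached 1 FPKM, and their median was 169 FPKM. The share of all genes at 1 FPKM or more, to be set beside each marker count here, was 56.0%. Measured markers of immune cells were mostly low, and their part in the cytokine levels was not tested. The listed macrophage markers Cd14, Csf1r and Emr1, the B cell marker Ms4a1 and the fibroblast markers Acta2 and Pdgfrb were not measured. At least 1 FPKM was reached by 1 of 5 macrophage markers (Cd68 at 5.32), 2 of 7 T and NK cell markers (Lck at 5.84 and Cd8a at 1.20), none of 3 B cell markers and 1 of 4 mast cell markers (Kit at 5.87). The pan-leukocyte gene Ptprc had 1 count, and Gzmb, Klrb1c, Cpa3 and Fcer1a had none. Of 8 fibroblast markers 1 passed, Thy1 at 3.74, and of 5 endothelial markers 2 did, Pecam1 at 5.61 and Tek at 2.51. A further list held 24 measured ligands of the same or related families, among them the members Il28a and Il28b. Of these 24, 7 (29.2%) had at least 1 FPKM, where 56.0% of all genes did. Hmgb1 was highest at 599 FPKM, followed by Mif, macrophage migration inhibitory factor, at 453 and Spp1 at 99.8. All of these lie far above any of the 105.

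FPKM in the table rests on an effective length that departed from the model length by a factor between 0.344 and 1.69 among the members. On the model length Ltb, at 21.9 FPKM, passed Ifnar1, at 14.8, and Cxcl16, at 6.12, passed Il17d, at 5.93. Ccl9, at 0.955, was the single member to cross 1 FPKM. Strand is not recorded in the table. Of the 23 members at 1 FPKM or more, 3 shared at least 10% of their annotated exon bases with another gene. Besides Tnfsf13, these were Cxcl16, with 18.3% opposite Zmynd15 (0.595 FPKM), and Cxcl11, with 41.7% opposite a processed pseudogene. Ccl25 lay under that share, with 204 of 7445 nt of annotated exons opposite Elavl1, a gene at 25.7 FPKM. The model of Ccl25 has 1083 nt, and what part of its 57 counts came from Elavl1 was not tested.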

How the data were processed

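RNA precipitated from cytoplasmic extracts of E14 cells, and total RNA of these cells, was fragmented and sequenced as TruSeq libraries, per the labels' protocols. The submitters' processing notes name the build mm9 and the tools eXpress 1.1.1, Bowtie 1.1.2 and CASAVA 1.8.2, without roles. The authors deposited total and unique counts, estimated counts and FPKM with bounds, and each gene symbol has 1 model, per the file headers. FPKM equals the count over the effective length and the total count. No column names a library, so the planned comparison of antibody with IgG was not run. The row without a gene holds the total and was left out.

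From the counts, exact 95% Poisson intervals, the limit of 3 counts and FPKM on the model length were computed here. These steps and the motif search were tested on simulated data. 3′ untranslated regions are the exon bases past the stop codon in GENCODE M21, the longest per gene. The members, lists and pairs were chosen with earlier results of these data known. Named genes are the members with at least 1 FPKM, the highest of each family, known targets of the ZFP36 family and their receptors; others were named after their values were seen. Alternatives were the model length, thresholds of 0.3 and 5 FPKM, a minimum of 10 counts, other motifs and the shortest region. Tools were scipy 1.17.1, numpy 2.4.6 and pandas 2.3.3 in Python 3.11.15, with figures by matplotlib 3.10.9.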

Additional observations from a re-analysis of the deposited data

How the results depend on the processing

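No paired analysis was possible because no column is tied to a replicate or group, and for the same reason the antibody against IgG comparison, its replicate block and the fits without a replicate were not run. With a threshold of 5 FPKM, 3 members and 10 receptors remained in the count, and with a threshold of 0.3 FPKM the receptors were 52 in place of 29 and the members 34 in place of 23. The model length gave 22 members and 32 receptors, and a minimum of 10 counts gave 23 and 29. Of the 50 members without counts, the number became 57 with fewer than 3 counts and 71 with fewer than 10. The longer motif TTATTTATT was found in 20 members in place of 50, ATTTA in 75, and TATTTAT in 43 with the shortest region. Among members at 1 FPKM or more, 5 in place of 9 held TATTTAT with the shortest region. On the model length, 6 pairs had both partners at 1 FPKM in place of 4, 12 the ligand alone, 16 the receptor alone and 13 neither. These comparisons of pairs and of members at 1 FPKM were chosen after seeing the data. Of the 23 members at 1 FPKM or more, 8 were higher on the model length beyond their Poisson interval, 1 was lower and 14 lay within it. What 3 counts allow depends on the length used: for Ccl26 it is 1.37 FPKM on the effective length and 0.470 on the model length. The spread between samples could not be measured.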
